A study of Mus musculus with 28 samples.

Results

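Macrophages were exposed to von Willebrand factor (VWF) or to bacterial lipopolysaccharide (LPS) for 3.5 h or for 16 h, and the time courses of the agonists were compared gene by gene. The quantity described is a difference of differences on the log2 scale, VWF minus LPS at 16 h less VWF minus LPS at 3.5 h, here called the interaction. A positive interaction means that VWF gained on LPS between the times, and a negative one that LPS gained on VWF. The members were the cultures that this contrast needs, 18 of 28, with 5 VWF-treated and 4 LPS-treated cultures at each time. The 10 control cultures did not enter the fit and are given only as the level of untreated cells. The interaction was tested in 8217 genes.

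The cells were murine bone marrow-derived macrophages (BMDM), which the study's methods describe as grown with M-CSF from the marrow of C57/B6JB mice of 8 to 12 weeks. The opening of those methods gives a younger age range for all murine experiments. VWF-treated cultures received 10 µg/ml of pd-VWF, a human protein purified from plasma, and LPS-treated cultures received 100 ng/ml of LPS. Control cultures received PBS, and the treatment medium held CaCl2. Cultures of each group carry replicate numbers, but whether a number stands for an animal, a pool of animals or a well is not given in the sources used here, so p-values measure the spread between these cultures.

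VWF is a large plasma glycoprotein that tethers platelets at sites of vessel injury and carries coagulation factor VIII. LPS, from the outer membrane of Gram-negative bacteria, is sensed by Toll-like receptor 4, which signals through MyD88 to NF-κB and the MAP kinases and through TRIF to type I interferon. In a macrophage the early wave of this response (cytokines, chemokines and their feedback inhibitors) is followed by slower programmes that include nitric oxide synthesis, a shift of glucose and citrate metabolism, and an arrest of the cell cycle.

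Total counts in the 18 cultures lay between 46021894 and 77699206, with a median of 52944593. The macrophage markers Adgre1, Csf1r, Cd68, Itgam, Fcgr1, Mertk, Lyz2 and Spi1 were detected in every culture, and the summed level of the 17 macrophage identity genes in the table lay between 10368.5 and 28362.9 CPM. CPM, a count set relative to library size, was scaled here by TMM factors over all 28 cultures. The culture LPS at 16 h replicate 4 stood apart from its group: its root mean square log2 distance from the group was 0.693, against 0.133 to 0.424 in the other 17 cultures, and 16011 genes were detected in it, against 19029 to 19485 in the others of its group. The respiratory chain list and Cited2 are given with and without it, and examples of other lists that it moved are given with the alternatives. Among the controls, replicate 5 at 16 h stood apart likewise, with a distance of 0.879 against 0.187 to 0.389 in the other 9, 16690 genes detected against 19184 to 19976 in its group, and a TMM factor of 0.945 against 1.17 to 1.18. Control levels at 16 h include it, and are given without it as well where it moved them by over 1.5 times or where a mean is printed.

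Markers of other cells that a marrow culture could hold moved with some groups. The summed level of 12 neutrophil genes was 145 to 230 CPM in LPS cultures at 16 h and 45.5 to 95.9 CPM in the other 3 groups, of which Csf3r, the receptor for G-CSF, made up most, while Ly6g was at or under 3 counts in all 18 cultures. The sum of 14 T, B and NK cell genes was 39.6 to 64.1 CPM in LPS cultures at 3.5 h, mostly Lck, and 6.95 to 13.2 CPM in the other 3 groups, with Cd3g among those at or under 3 counts throughout. The sum of 8 dendritic cell genes was 1.34 to 4.53 CPM in VWF cultures at 16 h and 14.1 to 42.4 CPM in the other 3 groups. Of these 8 genes only Xcr1 and Ccr7 passed the expression filter. Controls held 28.1 to 52.2 CPM of the neutrophil genes, 9.39 to 17.5 CPM of the lymphocyte genes and 1.16 to 2.57 CPM of the dendritic cell genes, so that for dendritic cell genes the late VWF cultures were the treated group nearest the untreated level. The sum of 10 stromal and endothelial genes overlapped between groups, at 60.9 to 428 CPM, and none of 13 erythroid, mast cell and megakaryocyte genes passed the expression filter, with Hbb-bs, Hbb-bt, Fcer1a and Gp9 among those at or under 3 counts. The part of such cells in the results was not tested, and in bulk RNA fewer cells of a type and less RNA per cell cannot be told apart.

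The promoters of 6 genes are shown because these genes stand for the main groups described: Il6 and Cxcl2 for cytokines and chemokines, Rsad2 for the interferon response, Slc2a1 for glucose uptake, and Uhrf1 and Rrm1 for DNA synthesis. Each line gives the 150 bases before the transcript start in RefSeq, on the gene's strand and in GRCm38.p6 coordinates, which are chr5:30012964-30013113 (+) for Il6, chr5:90903749-90903898 (+) for Cxcl2, chr12:26456453-26456602 (−) for Rsad2, chr4:119108595-119108744 (+) for Slc2a1, chr17:56303187-56303336 (+) for Uhrf1 and chr7:102441545-102441694 (+) for Rrm1. In each line capitals mark the matches of 1 motif that was searched on both strands: the κB consensus in Il6 and in Cxcl2 (where a pair of matches overlap), the interferon-stimulated response element (ISRE) core GAAANNGAA in Rsad2, the hypoxia response core ACGTG in Slc2a1 and the E2F motif GGCGGGAA in Uhrf1 and Rrm1. Matches of the other motifs searched are left in lower case, here an AP-1 match in Rsad2. The E2F motif and its pair of genes were chosen after the values had been seen.
Il6: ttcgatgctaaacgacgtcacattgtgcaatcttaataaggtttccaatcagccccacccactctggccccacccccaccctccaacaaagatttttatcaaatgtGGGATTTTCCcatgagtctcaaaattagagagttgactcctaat
Cxcl2: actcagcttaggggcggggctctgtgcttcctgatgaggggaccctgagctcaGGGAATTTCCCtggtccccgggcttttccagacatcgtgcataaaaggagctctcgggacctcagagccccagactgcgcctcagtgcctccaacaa
Rsad2: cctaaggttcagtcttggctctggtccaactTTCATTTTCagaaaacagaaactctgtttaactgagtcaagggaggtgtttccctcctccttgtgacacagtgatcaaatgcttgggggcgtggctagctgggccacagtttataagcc
Slc2a1: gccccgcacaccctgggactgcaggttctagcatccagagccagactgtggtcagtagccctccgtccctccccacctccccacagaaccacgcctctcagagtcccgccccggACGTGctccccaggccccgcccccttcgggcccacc
Uhrf1: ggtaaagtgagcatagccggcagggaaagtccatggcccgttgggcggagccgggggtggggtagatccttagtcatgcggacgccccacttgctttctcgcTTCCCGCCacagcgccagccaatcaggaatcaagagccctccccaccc
Rrm1: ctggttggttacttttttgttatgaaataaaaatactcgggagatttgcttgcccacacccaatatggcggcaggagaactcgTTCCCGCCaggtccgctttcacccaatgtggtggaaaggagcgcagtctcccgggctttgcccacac

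Of the 8217 genes tested, 2052 (25.0%) were called in the interaction, at an adjusted p under 0.05 in edgeR's quasi-likelihood test with Benjamini-Hochberg adjustment and an absolute log2 value of at least 1, a fold of 2. VWF gained on LPS in 879 genes (10.7%) and LPS gained on VWF in 1173 (14.3%). The absolute log2 interaction of the called genes had a median of 1.50, and it was at least 2 in 589 of them and at least 3 in 236. The median over all genes tested was −0.08. TMM factors lay between 0.753 and 0.908 in LPS cultures and between 1.06 and 1.23 in VWF cultures, and scaling by library size alone moved that median to 0.10 and the share of called genes in which VWF gained from 42.8% to 56.8%. No called gene changed sign under that scaling.

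The agonist difference itself was called in 931 genes (11.3%) at 3.5 h, with VWF higher in 372 (4.53%) and LPS higher in 559 (6.80%). At 16 h it was called in 2100 genes (25.6%), with VWF higher in 862 (10.5%) and LPS higher in 1238 (15.1%). In 1245 genes the difference widened, meaning that it was called at 16 h and larger there than at 3.5 h, and LPS was the higher agonist in 689 of these and VWF in 556. The difference closed in 226 genes, of which VWF had been higher at 3.5 h in 150 and LPS in 76. In 61 genes it turned, being called at both times with opposite signs, from VWF to LPS in 49 and from LPS to VWF in 12. The other 520 called genes fell in none of these classes. Their agonist difference was called at neither time by itself, or only at the time where it was the smaller. The plot of the agonist difference at both times shows these classes in colour around the line of equal differences.

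**Figure D1:**
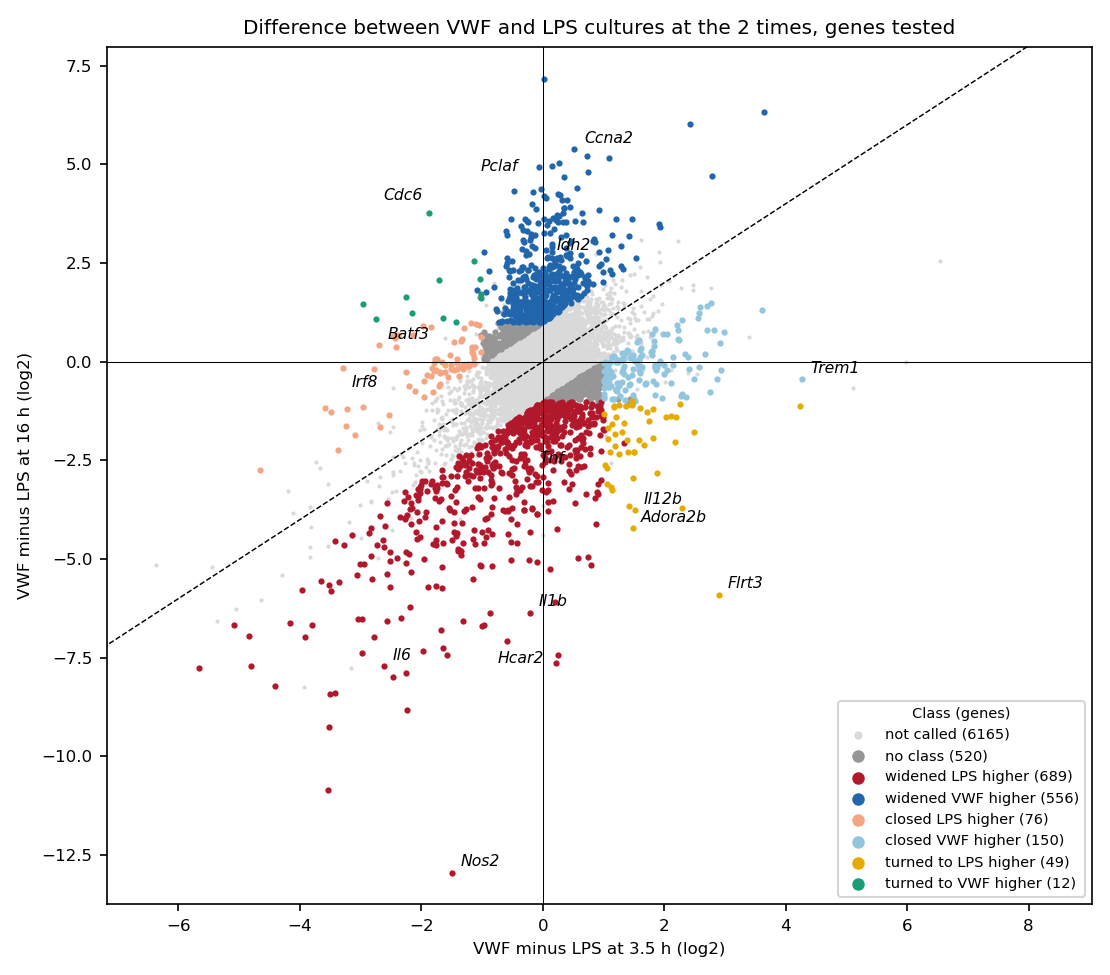
Log2 difference of VWF and LPS cultures at 3.5 h (horizontal) and at 16 h (vertical), with 1 point for each of 8217 genes tested, coloured by class, and a dashed line where the differences are equal. Nos2 lies lowest at −12.94 on the vertical axis, and the 689 genes that widened with LPS higher and the 556 that widened with VWF higher spread below and above the line.

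Both agonists contributed to the divergence. From 3.5 h to 16 h, 1794 genes (21.8%) were called in VWF cultures, with 736 higher (8.96%) and 1058 lower (12.9%) at 16 h, and 2261 (27.5%) were called in LPS cultures, with 1148 higher (14.0%) and 1113 lower (13.5%). Of the 1173 genes in which LPS gained, 393 rose in LPS cultures with no call in VWF cultures, and 320 fell in VWF cultures with no call in LPS cultures. Both moved apart in 70, where VWF cultures fell and LPS cultures rose. In 92 both fell and in 88 both rose, to different extents. Neither time course was called by itself in 210. Of the 879 genes in which VWF gained, 375 fell in LPS cultures with no call in VWF cultures, 178 rose in VWF cultures with no call in LPS cultures, and 46 rose in VWF cultures while they fell in LPS cultures. Both fell in 52 and both rose in 11, and neither time course was called by itself in 217.

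**Figure D2:**
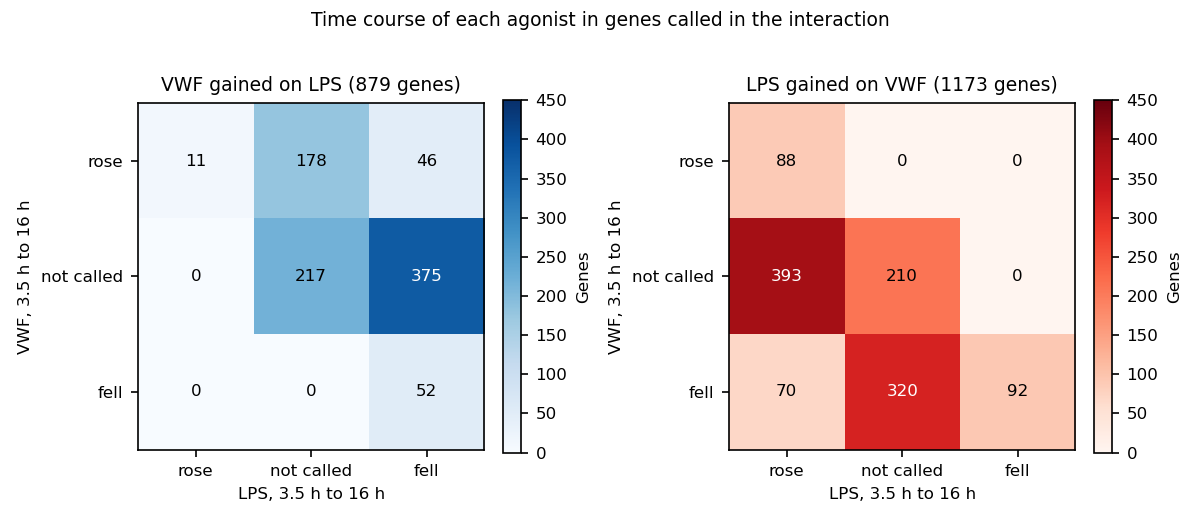
Number of genes called in the interaction by the time course of VWF cultures (vertical) and LPS cultures (horizontal), for the 879 genes in which VWF gained on LPS (left) and the 1173 in which LPS gained on VWF (right). The fullest cells hold the 375 genes that fell and the 393 that rose with LPS and were not called with VWF.

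Genes named for a class were chosen among those without overlap of VWF and LPS cultures at the class's time. Their lack of overlap at that time is therefore part of the choice. Of all 8217 genes tested, the cultures did not overlap in 3233 at 3.5 h and in 4138 at 16 h. The genes with the largest widening in favour of LPS were Nos2, Hcar2, Hspa1a and Il1b. Nos2 (chr11:78920787-78960254 in GRCm38) encodes the inducible nitric oxide synthase. At 3.5 h it stood at 53.8, 46.7, 33.4, 53.2 and 59.5 CPM in VWF cultures and at 107, 169, 132 and 147 CPM in LPS cultures. At 16 h it stood at 0.0943, 0.319, 0.492, 0.319 and 0.128 CPM in VWF cultures and at 2863, 2253, 2361 and 999.9 CPM in LPS cultures. The groups did not overlap at either time, LPS cultures being higher at both, and the lowest LPS culture at 16 h was replicate 4. Controls lay between 0 and 0.0880 CPM. The difference grew from −1.49 to −12.94 log2, an interaction of −11.45 (SE 0.52, edgeR adjusted p = 5.82e-11), since Nos2 fell by 7.49 log2 in VWF cultures and rose by 3.96 in LPS cultures.

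Il1b, the gene of interleukin-1β (chr2:129364570-129371139), began from the same level with both agonists. At 3.5 h it stood at 687, 983, 1588, 1398 and 1043 CPM with VWF and at 949, 1091, 1634 and 1591 CPM with LPS. At 16 h the values were 16.5, 14.3, 18.5, 15.4 and 8.27 CPM with VWF and 1159, 1049, 1020 and 1414 CPM with LPS. The cultures overlapped at 3.5 h and were far apart at 16 h, while controls stayed at or under 6.71 CPM. Il1b fell by 6.29 log2 in VWF cultures against −0.15 in LPS cultures (not called), an interaction of −6.14 (SE 0.38, edgeR adjusted p = 1.29e-09).

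Hcar2 encodes a receptor for niacin and β-hydroxybutyrate (chr5:123863570-123865499). It stood at 36.1, 36.9, 46.5, 57.9 and 61.6 CPM with VWF and at 22.8, 41.9, 42.6 and 56.7 CPM with LPS at 3.5 h. At 16 h VWF cultures held 0.330, 0.213, 0.302, 0.0710 and 0.384 CPM and LPS cultures 76.2, 58.1, 44.4 and 24.8 CPM. The groups overlapped at 3.5 h and not at 16 h, when controls held 0.232 to 4.28 CPM (2.77 to 4.28 without replicate 5). The interaction of Hcar2 was −7.87 (SE 0.52, edgeR adjusted p = 3.18e-09). Hspa1a, an inducible HSP70 chaperone, differed by 0.20 log2 at 3.5 h and by −6.10 at 16 h, with means of 0.934 ± 0.243 CPM (SD, n = 5) with VWF and 62.7 ± 14.6 CPM (n = 4) with LPS at 16 h. Its interaction was −6.30 (SE 0.31, edgeR adjusted p = 1.17e-10), but 48.6% of the 100-base windows of its transcripts also occur in Hspa1b, so the split of reads between these genes is uncertain.

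Among the genes that widened in favour of VWF the leading ones act in the cell cycle. Pclaf, a partner of the replication clamp PCNA (chr9:65890237-65903266), stood at 42.0, 27.6, 17.8, 23.8 and 24.7 CPM with VWF and at 37.4, 28.4, 22.8 and 25.3 CPM with LPS at 3.5 h. After 16 h it stood at 66.6, 63.9, 58.8, 71.3 and 88.7 CPM with VWF and at 2.45, 1.55, 1.65 and 3.18 CPM with LPS. The cultures overlapped at the early time and were apart at the late one, where the VWF cultures were near the controls (61.8 to 85.4 CPM) and the LPS cultures far below. The interaction was 5.01 (SE 0.36, edgeR adjusted p = 7.63e-09).

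Ccna2, cyclin A2 (chr3:36564865-36572150), held 31.2, 23.7, 17.9, 19.8 and 24.9 CPM with VWF and 23.7, 15.4, 11.8 and 14.5 CPM with LPS at 3.5 h. The 16 h levels were 25.2, 24.1, 23.9, 25.3 and 35.3 CPM with VWF and 0.758, 0.345, 0.312 and 1.11 CPM with LPS. VWF cultures moved little between the times (0.17 log2, not called) while LPS cultures fell by 4.68, giving an interaction of 4.86 (SE 0.42, edgeR adjusted p = 6.55e-08). Here the VWF cultures at 16 h lay below all 5 controls, which held 53.7 to 104 CPM. Of the transcript's exon bases, 12.5% overlap Exosc9 on the other strand, and the strand setting of the counting is not given in the sources used here. Fignl1, an ATPase of homologous recombination, and Pbk, a mitotic kinase, both had interactions of 4.80 (SE 0.26 and 0.42, edgeR adjusted p = 2.9e-10 and 7.66e-08). Fignl1 rose by 2.20 log2 with VWF and fell by 2.60 with LPS, whereas Pbk was not called with VWF (0.42) and fell by 4.38 with LPS.

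Differences that closed had been set at 3.5 h. Trem1 encodes a receptor that amplifies inflammatory signals in myeloid cells (chr17:48232768-48246924). At 3.5 h it stood at 26.3, 17.9, 16.4, 17.5 and 21.9 CPM with VWF and at 1.62, 0.869, 0.857 and 0.786 CPM with LPS, with the controls between them at 5.84 to 6.40 CPM. By 16 h VWF cultures held 4.32, 1.49, 1.41, 2.95 and 0.988 CPM and LPS cultures 3.86, 4.24, 2.25 and 1.46 CPM. All VWF cultures were above all LPS cultures at 3.5 h and the groups overlapped at 16 h, so that the difference went from 4.27 to −0.45 log2 with an interaction of −4.72 (SE 0.58, edgeR adjusted p = 3.16e-06).

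Arhgef10l, an exchange factor for small GTPases, and Trib1, a pseudokinase that targets C/EBPα for degradation, closed from the other side: LPS cultures were low at 3.5 h and came up. Arhgef10l stood at 6.92 ± 0.630 CPM in LPS cultures at 3.5 h, against 46.6 ± 3.31 with VWF and 60.4 ± 2.52 in controls, and rose by 4.18 log2 in LPS cultures to 123 ± 8.42 CPM at 16 h. Its interaction was −3.52 (SE 0.12, edgeR adjusted p = 2.55e-12). Trib1 stood at 7.57 ± 1.56 CPM with LPS at 3.5 h, against 55.5 ± 7.44 with VWF and 58.5 ± 6.02 in controls, and at 41.7 ± 3.07 and 31.7 ± 3.50 CPM at 16 h, an interaction of −3.31 (SE 0.20, edgeR adjusted p = 1.16e-09). In both genes the LPS cultures lay above the VWF cultures at 16 h without overlap, by 0.78 and 0.44 log2, under the threshold for a call. Atg9a, an autophagy membrane protein, had an interaction of −3.24 (SE 1.08, edgeR adjusted p = 0.0179) with widely spread cultures (5.21 to 23.5 CPM with VWF at 3.5 h), 27.8% of its windows shared with the overlapping gene Gm29253, and an adjusted p of 0.0731 when no expression filter was used.

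In the opposite direction, Irf8, a transcription factor of monocyte and dendritic cell development (chr8:120736358-120756694), had a transient excess with LPS. It stood at 82.6, 95.2, 99.5, 121 and 118 CPM with VWF and at 761, 1009, 1041 and 1220 CPM with LPS at 3.5 h. At 16 h it stood at 183, 171, 180, 182 and 145 CPM with VWF and at 157, 187, 190 and 210 CPM with LPS. Only LPS cultures at 3.5 h were above the range of the others, controls included (102 to 182 CPM), and the interaction was 3.13 (SE 0.20, edgeR adjusted p = 1.83e-09). Batf3, which acts with Irf8 in dendritic cell development, had an interaction of 3.12 (SE 0.59, edgeR adjusted p = 0.000283), with 9.71 ± 1.17 CPM in LPS cultures and 1.51 ± 0.611 in VWF cultures at 3.5 h. Rgs2, a regulator of G protein signalling, differed otherwise: VWF cultures were low at 3.5 h, at 19.8 ± 4.72 CPM against 108 ± 13.7 with LPS, and rose by 2.82 log2 to 140 ± 23.8 CPM. At 16 h its VWF cultures lay above the LPS cultures (87.4 ± 18.5 CPM) without overlap though under the threshold, and its interaction was 3.10 (SE 0.25, edgeR adjusted p = 2.31e-08). Controls held 155 ± 23.0 CPM of Rgs2 at 3.5 h and 480 ± 76.6 at 16 h (450 ± 38.8 without replicate 5), above the means of both agonists. Plekhf1, an endosomal adaptor, had an interaction of 3.06 (SE 0.39, edgeR adjusted p = 4.31e-06), since LPS cultures fell by 3.98 log2 from 21.7 ± 2.43 CPM.

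**Figure D3:**
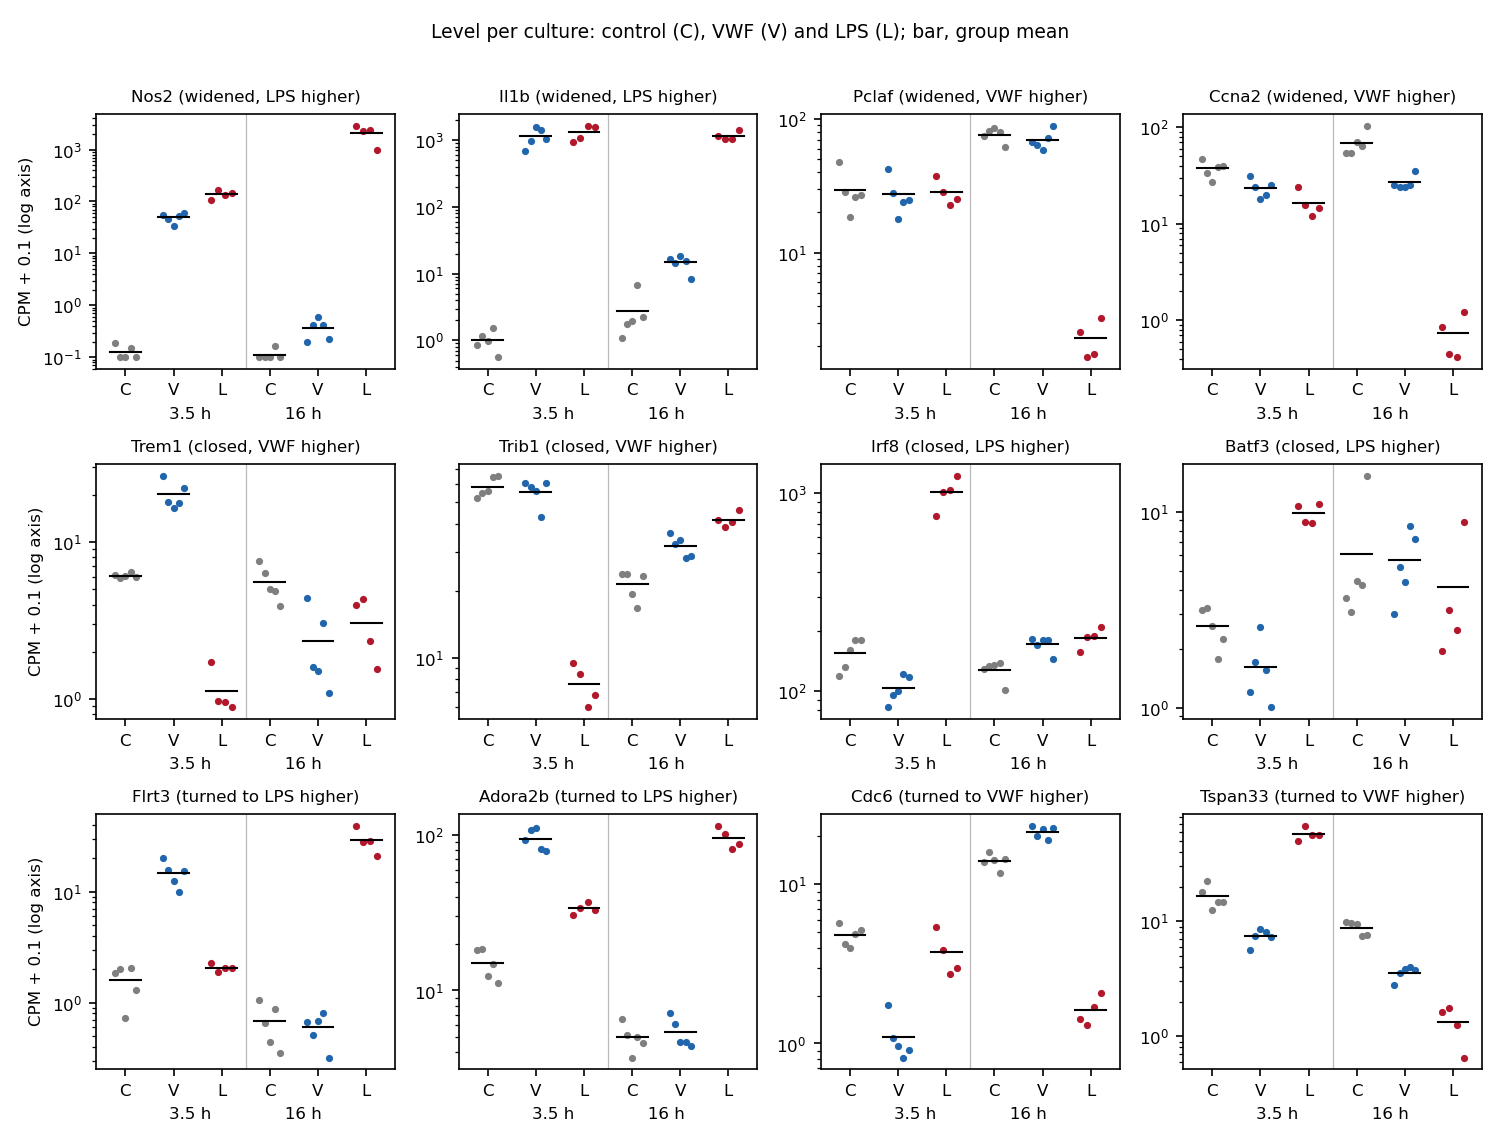
Level of 12 genes in every culture, in CPM plus a constant of 0.1 on a log axis, for control (grey), VWF (blue) and LPS (red) cultures at 3.5 h and 16 h, with the group mean as a bar. VWF and LPS cultures change order between the times in the bottom row, from Flrt3 at 14.7 and 1.96 CPM to 0.499 and 29.1 CPM.

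The difference turned in 61 genes. Flrt3, an adhesion protein of the fibronectin-leucine-rich family (chr2:140650914-140671469), led the turn towards LPS. At 3.5 h it stood at 20.1, 15.7, 12.4, 9.87 and 15.4 CPM with VWF and at 2.15, 1.79, 1.95 and 1.95 CPM with LPS. After 16 h it stood at 0.566, 0.414, 0.588, 0.710 and 0.220 CPM with VWF and at 39.1, 28.1, 28.5 and 20.8 CPM with LPS. The groups did not overlap at either time and exchanged places, and the early LPS and late VWF cultures were near the controls (0.251 to 1.97 CPM). The difference went from 2.91 to −5.90 log2, an interaction of −8.81 (SE 0.40, edgeR adjusted p = 5.82e-11).

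Adora2b, the adenosine A2B receptor (chr11:62248984-62266453), showed the same order. Its levels were 93.0, 108, 111, 80.8 and 78.5 CPM with VWF and 30.4, 33.9, 37.1 and 33.1 CPM with LPS at 3.5 h. At 16 h they were 7.09, 5.99, 4.59, 4.53 and 4.30 CPM with VWF and 114, 101, 81.0 and 88.2 CPM with LPS. VWF cultures came down near the 16 h controls (3.60 to 6.44 CPM) while LPS cultures rose, with an interaction of −5.71 (SE 0.22, edgeR adjusted p = 9.25e-12). Il12b, the p40 chain of interleukin-12 and interleukin-23, fell with both agonists, by 7.27 log2 with VWF and by 1.98 with LPS. It had been higher with VWF at 3.5 h, at 109 ± 37.0 against 38.3 ± 11.1 CPM, and was lower at 16 h, at 0.702 ± 0.477 against 9.47 ± 7.05 CPM (interaction −5.29, SE 0.77, edgeR adjusted p = 2.16e-05). Spic, a transcription factor of iron-recycling macrophages, rose by 4.34 log2 with LPS to 73.2 ± 9.85 CPM and was not called in the VWF time course (−0.74), with an interaction of −5.07 (SE 0.20, edgeR adjusted p = 9.25e-12).

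The turn towards VWF held 12 genes and was led by Cdc6, which loads the MCM helicase onto replication origins (chr11:98907801-98923940). At 3.5 h it stood at 1.65, 0.977, 0.859, 0.716 and 0.813 CPM with VWF and at 5.31, 3.76, 2.65 and 2.90 CPM with LPS. The 16 h levels were 23.2, 20.0, 22.2, 18.9 and 22.4 CPM with VWF and 1.32, 1.21, 1.58 and 1.97 CPM with LPS. VWF cultures were below the controls at 3.5 h (3.88 to 5.58 CPM) and above them at 16 h (11.7 to 15.8 CPM), and the interaction was 5.64 (SE 0.36, edgeR adjusted p = 2.27e-09). In Tspan33, Rnd3 and Zbtb8a the turn came from a fall of 5.50, 5.22 and 3.97 log2 in LPS cultures, and their interactions were 4.42, 3.90 and 3.84 (edgeR adjusted p at most 2.63e-08). Rnd3, a small GTPase that acts on the actin cytoskeleton, stood at 257 ± 32.1 CPM with LPS and 53.7 ± 7.38 with VWF at 3.5 h and at 6.71 ± 1.84 and 21.5 ± 5.87 CPM at 16 h.

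Lists of genes of known pathways were described by the members called and the median log2 interaction beside the −0.08 of all genes tested. Over all genes tested VWF gained in 10.7% and LPS in 14.3%, the shares to set beside each list's counts. In 32 tested genes of DNA replication and nucleotide synthesis VWF gained in 30 and LPS in none, with a median of 2.74. The list's median agonist difference was 0.01 log2 at 3.5 h and 2.84 at 16 h. Of its genes, 31 rose between the times with VWF, and 15 fell and 1 rose with LPS. In the mean log2 level over the list, set to 0 in controls at 3.5 h, VWF cultures held 1.43 ± 0.0623 (SD, n = 5) at 16 h, controls 1.11 ± 0.116 (n = 5; 1.15 ± 0.0910 without replicate 5) and LPS cultures −1.16 ± 0.0726 (n = 4), with no overlap of VWF and LPS cultures. Uhrf1, which recruits the maintenance DNA methyltransferase, stood at 77.1, 73.7, 81.7, 55.9 and 84.7 CPM with VWF and at 3.43, 3.61, 4.96 and 3.38 CPM with LPS at 16 h, against 5.06 to 15.6 and 4.83 to 13.4 CPM at 3.5 h. Its interaction was 3.99 (SE 0.44, edgeR adjusted p = 9.11e-07), and that of Rrm1, the large subunit of ribonucleotide reductase, was 2.83 (SE 0.26, edgeR adjusted p = 1.3e-07). Ung, the uracil-DNA glycosylase, Rrm2, the other subunit of ribonucleotide reductase, and Tk1, thymidine kinase, had interactions of 4.76, 4.39 and 4.33. Ung rose with VWF from 0.604 ± 0.233 to 19.3 ± 1.09 CPM and was not called with LPS (0.509 ± 0.244 and 0.572 ± 0.217 CPM).

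Mitosis genes diverged by another course. Of 23 tested, VWF gained in 20 and LPS in 1, with a median of 3.12. With VWF none rose and 5 fell between the times, and with LPS 22 fell and 1 rose. The mean log2 level over the list at 16 h was −0.67 ± 0.255 with VWF, 0.55 ± 0.178 in controls (0.50 ± 0.158 without replicate 5) and −3.32 ± 0.0913 with LPS, so that VWF cultures lay above the LPS cultures and below the controls, without overlap. Top2a, topoisomerase IIα, stood at 57.4 ± 13.5 CPM with VWF and 1.98 ± 0.724 with LPS at 16 h (interaction 4.07), and Birc5 (survivin) and Plk1 (polo-like kinase 1) had interactions of 3.97 and 3.94. Tpx2, a spindle factor that activates Aurora A, went the other way with an interaction of −2.38 (SE 0.28, edgeR adjusted p = 1.75e-06): it rose with LPS from 31.2 ± 2.58 to 105 ± 31.9 CPM.

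**Figure D4:**
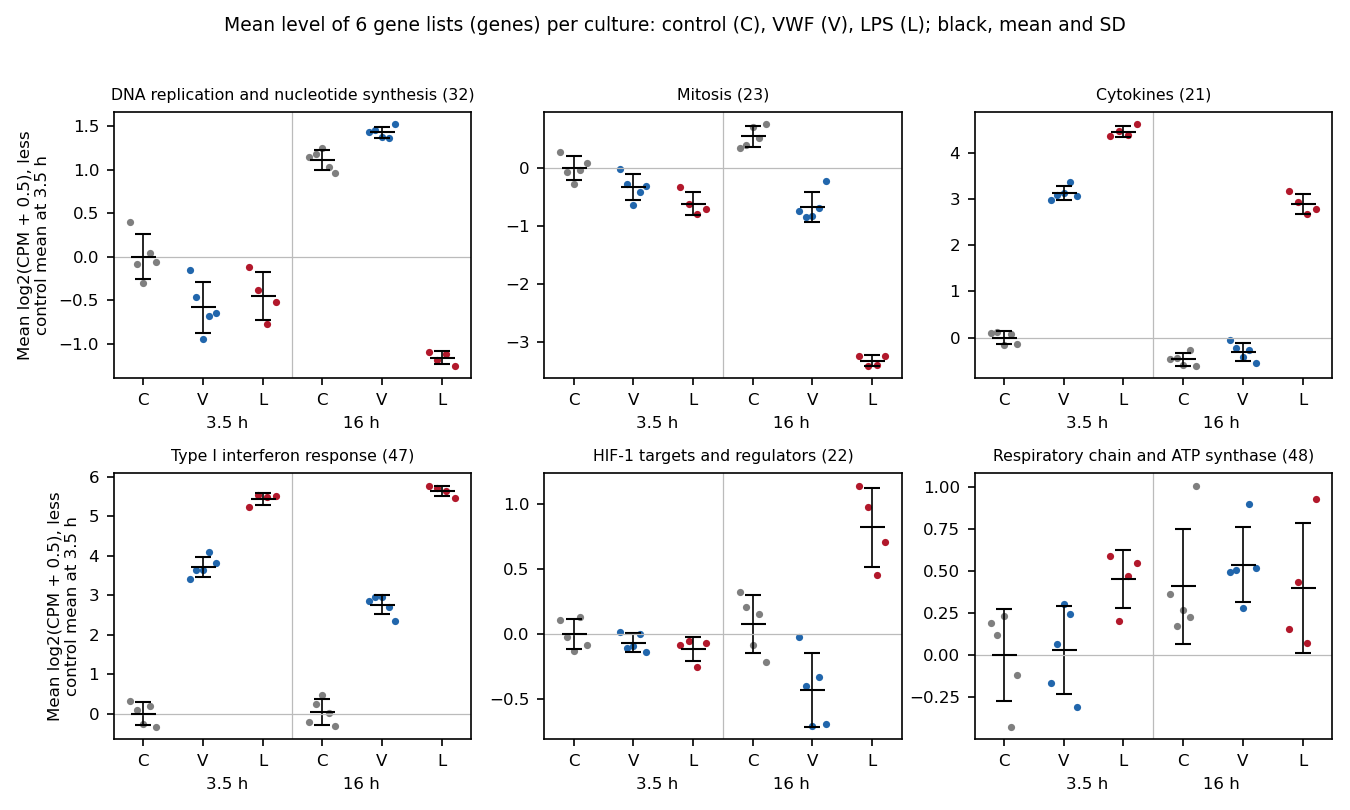
Mean log2(CPM + 0.5) over the tested genes of 6 lists in every culture, less the mean of controls at 3.5 h, with mean and SD in black. The replication list separates VWF cultures (1.43 ± 0.0623) from LPS cultures (−1.16 ± 0.0726) at 16 h, and the cytokine list separates them in the other direction (−0.31 ± 0.191 and 2.89 ± 0.219).

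Signalling and feedback genes of NF-κB diverged late. In 24 genes the median difference was −0.19 log2 at 3.5 h, with LPS higher in 1 gene and VWF in none. By 16 h the median was −1.55, with LPS higher in 21. LPS gained in 17 and VWF in none, with a median interaction of −1.42. Of the 24 genes, 22 fell between the times with VWF and 11 with LPS. Traf1, an adaptor of TNF receptors, stood at 207 ± 20.2 and 194 ± 22.1 CPM with VWF and LPS at 3.5 h and at 19.3 ± 1.91 and 259 ± 34.6 CPM at 16 h, an interaction of −3.87 (SE 0.15, edgeR adjusted p = 9.25e-12). Nfkbie, the inhibitor IκBε, Icam1, an adhesion molecule, and Zc3h12a, the RNase regnase-1, had interactions of −2.80, −2.48 and −2.16. In 25 immediate-early factors and MAP kinase phosphatases LPS gained in 17 and VWF in none, with a median of −1.38. The orphan receptor Nr4a1 stood at 7.28, 6.39, 6.89, 5.33 and 7.16 CPM with VWF and at 5.54, 4.39, 3.82 and 3.85 CPM with LPS at 3.5 h. By 16 h VWF cultures held 0.519, 0.497, 0.445, 0.355 and 0.494 CPM and LPS cultures 22.3, 12.8, 10.2 and 11.9 CPM. VWF cultures at 16 h were the lowest group, below the 16 h controls (7.12 to 15.1 CPM), and LPS cultures the highest of these 4 groups. At 3.5 h both agonists were below the controls (27.1 to 57.8 CPM). The interaction was −5.57 (SE 0.31, edgeR adjusted p = 4.64e-10). Egr2 turned, with a difference of 1.82 log2 at 3.5 h and −1.21 at 16 h.

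Of 21 cytokine genes, LPS gained in 16 and VWF in none, with a median of −2.31. Between the times 18 of them fell with VWF and 12 with LPS, and the median change over the list was −3.52 log2 with VWF and −1.59 with LPS. Il6 (chr5:30013114-30019981) stood at 46.8, 62.4, 75.8, 127 and 63.1 CPM with VWF and at 538, 312, 455 and 524 CPM with LPS at 3.5 h. At 16 h it stood at 0.377, 0.331, 0.206, 0.408 and 0.165 CPM with VWF and at 73.8, 54.4, 37.2 and 79.5 CPM with LPS. The groups were apart at both times and farther apart at 16 h (interaction −5.09, SE 0.45, edgeR adjusted p = 7.42e-08).

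Tnf (chr17:35199381-35202007) had nearly equal levels early, 2244, 2514, 2676, 2683 and 2332 CPM with VWF and 3006, 2750, 2725 and 2812 CPM with LPS. After 16 h it stood at 50.3, 50.4, 47.3, 53.9 and 48.3 CPM with VWF and at 300, 253, 328 and 396 CPM with LPS. LPS cultures were above VWF cultures without overlap at both times, by 0.19 log2 (not called) and by 2.72, while 16 h controls held 20.0 to 33.2 CPM. The interaction was −2.53 (SE 0.16, edgeR adjusted p = 1.29e-09). Il1a, of interleukin-1α, had an interaction of −5.71 (SE 0.45, edgeR adjusted p = 2.07e-08).

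In 22 chemokine genes LPS gained in 14 and VWF in 2, with a median of −2.29. Cxcl2, a neutrophil attractant whose promoter is shown above, turned: it stood at 1081, 979, 1123, 1290 and 1228 CPM with VWF and at 472, 595, 487 and 547 CPM with LPS at 3.5 h, and at 24.0, 20.8, 20.2, 23.1 and 26.7 CPM and 252, 202, 165 and 184 CPM at 16 h. VWF cultures were the higher group early and the lower one late, without overlap (interaction −4.29, SE 0.18, edgeR adjusted p = 1.41e-11). Ccl2, Ccl3 and Ccl4, attractants of monocytes and other leukocytes, had interactions of −2.43, −3.36 and −3.54 (edgeR adjusted p at most 1.51e-05). Ccl2 was the one of these with no call in LPS cultures over time (0.09 log2), at 2112 ± 522 and 2197 ± 691 CPM, while it fell with VWF from 506 ± 84.3 to 100 ± 32.4 CPM. Cxcl10, the gene of a CXCR3 ligand, had an interaction of −5.35. Cxcl11, which the annotation used here lists as a polymorphic pseudogene, had an interaction of −5.73. Of its exon bases, 41.7% overlap Gm2673 on the other strand. The eosinophil attractant Ccl24 had an interaction of −5.60, a value set by 0 to 4 counts in VWF cultures at 16 h. VWF gained in Cxcl14 (1.66), at 96.6 ± 14.0 CPM with VWF and 32.8 ± 7.30 with LPS at 16 h, and in Pf4 (1.30), the platelet factor 4 gene. Controls at 16 h held 184 ± 32.1 CPM of Cxcl14 (188 ± 35.2 without replicate 5), above the means of both agonists.

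The type I interferon response differed between the agonists at both times. Of 47 genes, LPS was higher in 42 at 3.5 h and in 46 at 16 h, and VWF in none at either time. The median difference was −1.73 and −2.61 log2. LPS gained in 23 and VWF in none, with a median of −0.86. Rsad2, which encodes the antiviral enzyme viperin (chr12:26442746-26456452), stood at 1296, 1714, 1907, 2991 and 2355 CPM with VWF and at 11983, 15009, 14785 and 14547 CPM with LPS at 3.5 h. The 16 h levels were 111, 121, 125, 73.7 and 54.4 CPM with VWF and 13466, 12161, 11630 and 9870 CPM with LPS. LPS cultures were not called over time (−0.23 log2) while VWF cultures fell by 4.41, staying above the 16 h controls (7.99 to 14.0 CPM), and the interaction was −4.19 (SE 0.35, edgeR adjusted p = 4.26e-08). Cmpk2, a mitochondrial nucleotide kinase, and Mx1, an antiviral GTPase, had the same course with interactions of −3.49 and −3.42. Gbp5, a guanylate-binding protein, fell with both, by 6.27 log2 with VWF and by 1.02 with LPS (interaction −5.26, SE 0.31, edgeR adjusted p = 9.44e-10). Over the whole list the mean log2 level above controls at 3.5 h was 2.76 ± 0.249 with VWF and 5.65 ± 0.129 with LPS at 16 h, against 0.04 ± 0.325 in the 16 h controls (0.13 ± 0.298 without replicate 5).

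In the lists of glycolysis and HIF-1 genes more members were called towards LPS than towards VWF. Of 23 glycolysis genes LPS gained in 9 and VWF in 2, with a median of −0.69, and of 22 HIF-1 targets and regulators LPS gained in 14 and VWF in 1, with a median of −1.60. Slc2a1, the glucose transporter GLUT1 (chr4:119108711-119137983), stood at 136, 111, 136, 171 and 155 CPM with VWF and at 62.0, 66.8, 63.9 and 92.7 CPM with LPS at 3.5 h. By 16 h VWF cultures held 97.1, 75.1, 76.9, 86.4 and 55.5 CPM and LPS cultures 241, 230, 172 and 163 CPM. VWF cultures were the higher group at 3.5 h, by 0.99 log2 and so just under the threshold, and the lower group at 16 h, by 1.41. The interaction was −2.40 (SE 0.24, edgeR adjusted p = 4.07e-07).

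Pfkfb3, which makes the activator of phosphofructokinase, stood at 262, 237, 236, 218 and 275 CPM with VWF and at 92.5, 151, 150 and 141 CPM with LPS at 3.5 h. At 16 h it stood at 58.1, 50.1, 56.8, 43.4 and 35.3 CPM with VWF and at 1016, 800, 887 and 601 CPM with LPS. The order of the agonists was exchanged without overlap at either time (interaction −5.00, SE 0.26, edgeR adjusted p = 1.63e-10). The transporter Slc2a6, the enolase Eno2 and the lactate exporter Slc16a3 had interactions of −3.46, −2.74 and −2.60. Aldoc, aldolase C, and Slc16a1, another monocarboxylate transporter, were the glycolysis genes in which VWF gained, by 2.34 and 1.36. Aldoc stood at 27.1 ± 3.11 CPM with VWF and 5.55 ± 0.995 with LPS at 16 h, and at 25.3 to 34.8 CPM in controls. Of the hexokinases, Hk2 was not called (0.54, SE 0.27, edgeR adjusted p = 0.1) and fell with both agonists (−1.22 log2 with VWF and −1.75 with LPS). Its control mean was lower at the late time too. It was 55.3 ± 23.5 CPM at 3.5 h and 20.1 ± 5.64 at 16 h (22.4 ± 2.89 without replicate 5). Hk3 passed the adjusted p but not the fold (−0.78, SE 0.17, edgeR adjusted p = 0.000732).

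Hif1a, the oxygen-regulated subunit of HIF-1, stood at 277, 269, 275, 282 and 286 CPM with VWF and at 186, 187, 224 and 200 CPM with LPS at 3.5 h. After 16 h it stood at 126, 107, 101, 119 and 78.5 CPM with VWF and at 205, 188, 184 and 218 CPM with LPS. VWF cultures changed from the higher to the lower group without overlap, with differences of 0.48 and −0.95 log2 that were not called, while the interaction was −1.43 (SE 0.16, edgeR adjusted p = 8.39e-07). Untreated cultures held 152 ± 23.8 CPM of Hif1a at 3.5 h and 77.6 ± 9.63 at 16 h (75.2 ± 9.10 without replicate 5). Egln3, the prolyl hydroxylase PHD3 and a HIF-1 target, rose with both agonists, by 2.11 log2 with VWF and by 4.27 with LPS (interaction −2.16, SE 0.57, edgeR adjusted p = 0.00433). The control mean was also higher at the late time, at 1.38 ± 0.454 CPM at 3.5 h and 3.29 ± 1.33 at 16 h (3.74 ± 1.02 without replicate 5). At 16 h VWF cultures held 3.35 ± 2.34 CPM of Egln3, near the controls, and LPS cultures 12.3 ± 3.40. Vegfa (vascular endothelial growth factor) and Ddit4 (an inhibitor of mTORC1) turned towards LPS with interactions of −3.02 and −2.56, and Adm (adrenomedullin) and Ankrd37 widened with −4.05 and −2.81, Ankrd37 sharing 22.7% of its exon bases with Lrp2bp on the other strand. Cited2, an inhibitor of HIF-1 transactivation, was the 1 member in which VWF gained (1.12, and 0.95 with no call without LPS at 16 h replicate 4).

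Of 24 genes of the citrate cycle and itaconate synthesis VWF gained in 5 and LPS in 1, with a median of 0.31. Idh2, the mitochondrial NADP-dependent isocitrate dehydrogenase (chr7:80094846-80115392), stood at 57.9, 52.4, 42.9, 50.4 and 49.2 CPM with VWF and at 44.8, 53.2, 42.9 and 49.5 CPM with LPS at 3.5 h. The 16 h levels were 88.8, 85.1, 87.4, 77.7 and 89.9 CPM with VWF and 13.3, 11.1, 15.0 and 13.1 CPM with LPS. The groups overlapped early and were apart late, and LPS cultures at 16 h lay below all controls (39.0 to 79.9 CPM, and 73.8 to 79.9 without replicate 5). The interaction was 2.58 (SE 0.14, edgeR adjusted p = 4.25e-10). Idh1, its cytosolic relative, Idh3a, the catalytic subunit of the NAD-dependent enzyme, and Suclg2, of succinyl-CoA ligase, had interactions of 1.56, 1.35 and 1.64.

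The 1 gene of this list in which LPS gained was Acod1, which makes itaconate from cis-aconitate. It stood at 4208, 4061, 4080, 4845 and 5511 CPM with VWF and at 2805, 4019, 4520 and 4176 CPM with LPS at 3.5 h. By 16 h VWF cultures held 290, 298, 418, 248 and 218 CPM and LPS cultures 5925, 5449, 6850 and 3605 CPM. LPS cultures kept the level (0.52 log2, not called) that VWF cultures lost, although VWF cultures stayed above the 16 h controls (1.26 to 12.6 CPM, and 2.58 to 12.6 without replicate 5), and the interaction was −4.48 (SE 0.30, edgeR adjusted p = 3.24e-09). In 48 genes of the respiratory chain and ATP synthase edgeR called 0, with a median of 0.51, and DESeq2 called 0 as well. By edgeR's adjusted p under 0.05 without the fold threshold, the interaction was positive in 13 and negative in 1. Over all 8217 genes tested these counts were 1926 and 2403. At an unadjusted p under 0.05 the interaction was positive in 18 and negative in 1 by edgeR, and in 20 and 1 by DESeq2. The positive share of 37.5% by edgeR stood beside 26.1% of all genes tested, and the negative share of 2.08% beside 32.4%. Without LPS at 16 h replicate 4, edgeR called 12 of the 48 (25.0%), all with VWF gaining, against 13.7% of all genes, and the median was 0.79.

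**Figure D5:**
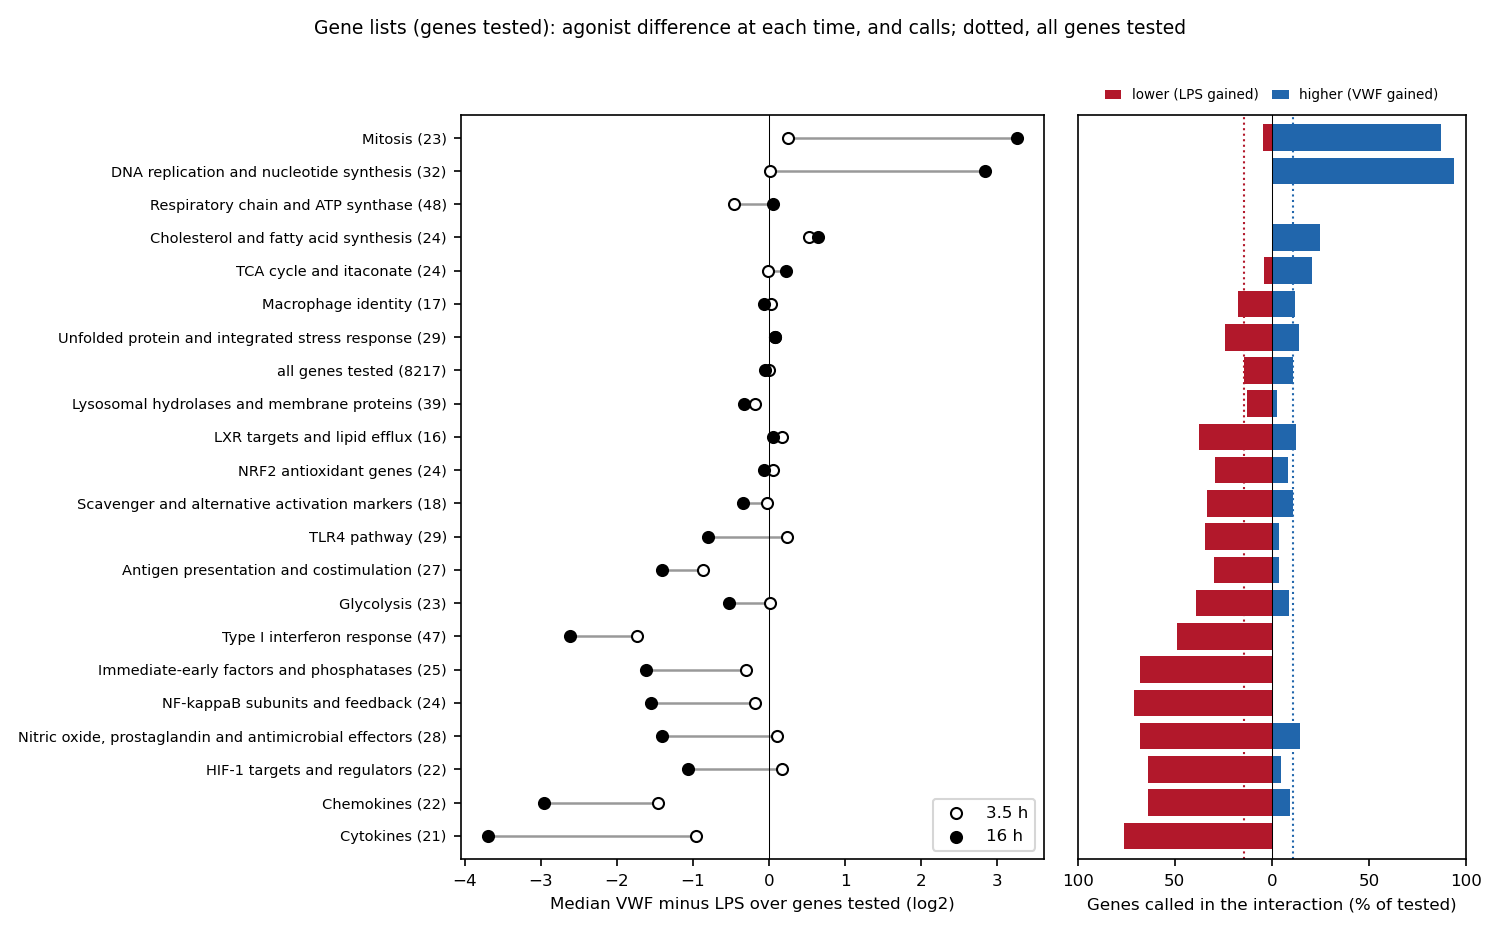
Left, median log2 difference of VWF and LPS cultures over the tested genes of each list at 3.5 h (open) and 16 h (filled). Right, percent of the tested genes called in the interaction in each direction, with dotted lines at 10.7% and 14.3% for all genes tested. Replication (median 2.84) and mitosis (3.26) lie farthest right at 16 h, and cytokines (−3.69) farthest left.

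Effector genes diverged in both directions within pathways. Of 28 genes of nitric oxide, prostaglandin and antimicrobial function LPS gained in 19 and VWF in 4, with a median of −1.59. The VWF count was little above the share of all genes tested (10.7%). The prostaglandin enzymes split: the inducible cyclooxygenase gene Ptgs2 stood at 5.16 ± 4.17 CPM with VWF and 412 ± 91.3 with LPS at 16 h (interaction −5.49), and Ptges, the inducible prostaglandin E synthase, turned from a difference of 1.49 to −2.95 log2 (interaction −4.44). The constitutive cyclooxygenase gene Ptgs1 went the other way, at 11.4 ± 1.27 CPM with VWF and 1.78 ± 0.375 with LPS at 16 h (interaction 2.56), as did Alox5ap, which activates 5-lipoxygenase (1.67), and Mmp9, a gelatinase (1.77). For Ptgs1 the 16 h controls held 8.23 to 11.7 CPM.

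Of 27 genes of antigen presentation and costimulation LPS gained in 8 and VWF in 1, with a median of −0.67. Cd86, a ligand of CD28, stood at 31.8, 44.7, 49.4, 50.7 and 46.1 CPM with VWF and at 155, 218, 195 and 240 CPM with LPS at 3.5 h. At 16 h it stood at 4.94, 4.66, 4.69, 3.90 and 3.62 CPM with VWF and at 385, 370, 257 and 255 CPM with LPS. VWF cultures were in the range of the controls at 3.5 h (29.1 to 54.5 CPM) and below all of them at 16 h (16.1 to 38.1 CPM, and 25.0 to 38.1 without replicate 5), and the interaction was −4.04 (SE 0.23, edgeR adjusted p = 7.22e-10). Cd83 had an interaction of −3.52, Cd274 (PD-L1) of −3.44 and Cd40 of −3.33. The single gene in which VWF gained was Havcr2 (TIM-3, 1.73).

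Of 18 scavenger and alternative activation markers LPS gained in 6 and VWF in 2, with a median of −0.32. The VWF count was near the share of all genes tested (10.7%). Mrc1, the mannose receptor CD206, stood at 556, 517, 497, 519 and 643 CPM with VWF and at 551, 574, 569 and 498 CPM with LPS at 3.5 h. After 16 h it stood at 106, 111, 106, 63.4 and 185 CPM with VWF and at 23.6, 20.7, 22.7 and 18.4 CPM with LPS. It fell with both (−2.27 log2 with VWF and −4.65 with LPS), and VWF cultures lay below the 16 h controls (186 to 251 CPM) but above the LPS cultures (interaction 2.38, SE 0.28, edgeR adjusted p = 2.34e-06). Clec10a, a lectin, behaved likewise (1.80), and the protease inhibitor Serpinb1a (−5.69, with 2 to 19 counts in VWF cultures at 16 h) and the transglutaminase Tgm2 (−3.02) moved towards LPS.

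In a list of TLR4 pathway genes, which also holds the receptors Tlr1 and Tlr9 and the factor Irf8, LPS gained in 10 of 29 and VWF in 1. Its median was −0.54. Irak2, a kinase of the MyD88 complex, stood at 215 ± 9.42 and 159 ± 8.53 CPM with VWF and LPS at 3.5 h and at 55.7 ± 8.18 and 233 ± 6.76 CPM at 16 h (interaction −2.55, SE 0.13, edgeR adjusted p = 1.59e-10). Ticam2, an adaptor of TRIF signalling, closed with an interaction of −2.06, but 13.0% of its windows also occur in the overlapping gene Tmed7. The receptors Tlr1 and Tlr9 had interactions of −2.07 and −2.79, and Tlr9, with spread of 21.3 ± 16.1 CPM in LPS cultures at 16 h, was not called when no filter was used (edgeR adjusted p = 0.0589). Irf8, described above, was the 1 gene of this list in which VWF gained.

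In 24 genes of cholesterol and fatty acid synthesis VWF gained in 6 and LPS in none, with a median of 0.44. The desaturase gene Fads1 stood at 54.9 ± 5.10 and 45.5 ± 3.69 CPM with VWF and LPS at 3.5 h and at 119 ± 8.91 and 21.5 ± 1.50 CPM at 16 h (interaction 2.16, SE 0.13, edgeR adjusted p = 9.28e-10), and the sterol reductase gene Dhcr7 and the desaturase gene Scd2 had interactions of 1.73 and 1.14, the latter 0.999 with no call without LPS at 3.5 h replicate 1. For Fads1 the 16 h controls held 95.8 to 112 CPM. Of 16 LXR targets and lipid efflux genes LPS gained in 6 and VWF in 2 (median −0.23), the VWF count being near the share of all genes. Nr1h3, which encodes LXRα, closed from a difference of 1.49 to 0.09 log2, Ch25h, cholesterol 25-hydroxylase, had an interaction of −4.25, and Cyp27a1, sterol 27-hydroxylase, one of 2.46. In 39 lysosomal genes LPS gained in 5 and VWF in 1 (median −0.18), shares near or under those of all genes. Tfeb, the transcription factor of lysosomal genes, closed with −1.73 as LPS cultures rose from 9.43 ± 0.406 to 63.9 ± 15.3 CPM.

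Stress genes were called in both directions within lists. Of 29 genes of the unfolded protein and integrated stress response VWF gained in 4 and LPS in 7, with a median of 0.17. The VWF count was little above the share of all genes tested (10.7%), and the LPS count was above theirs (14.3%). The endoplasmic reticulum chaperone genes Sdf2l1 and Pdia4 rose with VWF (interactions 2.10 and 1.09). The pseudokinase Trib3 and the glutathione-degrading Chac1 turned towards LPS (−3.58 and −3.34), and Ddit3 (CHOP) rose with both, to 36.7 ± 7.08 CPM with VWF and 137 ± 18.7 with LPS (−2.02). Controls held 42.7 to 57.7 CPM of Ddit3 at 16 h. Of 24 NRF2 antioxidant genes VWF gained in 2 and LPS in 7, with a median of −0.31. Here the VWF count was under the share of all genes and the LPS count above it. Nfe2l2, the gene of NRF2, closed from 1.85 to −0.08 log2, the cystine transporter Slc7a11 turned (−3.78), and haem oxygenase Hmox1 stood at 1101 ± 102 and 555 ± 24.9 CPM with VWF and LPS at 3.5 h and at 2691 ± 536 and 7321 ± 377 CPM at 16 h (−2.47). Gsta3, a glutathione transferase, gained with VWF (3.36), at 32.8 ± 3.04 CPM against 2.66 ± 0.348 with LPS and 4.74 ± 1.57 in controls at 16 h (5.42 ± 0.395 without replicate 5).

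Of 17 macrophage identity genes VWF gained in 2 and LPS in 3, with a median of 0.24, shares near those of all genes (10.7% and 14.3%). Lyz2, lysozyme, stood at 16746 ± 1912 CPM with VWF and 3807 ± 1097 with LPS at 16 h, against 7180 ± 1075 and 7023 ± 1898 CPM at 3.5 h (interaction 2.07), and Cx3cr1, the fractalkine receptor, widened from 2.79 to 4.70 log2. Cebpb and Cebpa, of the C/EBP factors, had interactions of −2.42 and −1.29, and Spi1 (PU.1) of −1.09. Few genes of other cells were tested. Of 5 neutrophil genes, whose median interaction was 0.42, Csf3r was the 1 called, and LPS gained in it (−2.77). LPS also gained in the dendritic cell receptor Xcr1 (−2.83), 1 of 2 tested genes of its list, and in the endothelial receptor Kdr (−4.34), 1 of 3. VWF gained in both lymphocyte genes tested, the B cell receptor subunit Cd79b (2.48) and the T cell kinase Lck (1.90).

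Library size scaling moved the counts of some lists. Scavenger markers then held 4 genes in which VWF gained and 4 in which LPS gained, stress response genes 7 and 7, NRF2 genes 4 and 4, LXR genes 2 and 3, lysosomal genes 2 and 3, macrophage identity genes 4 and 2, and the respiratory chain 4 and none, while no list's median interaction changed sign. Exons of Cebpb, Cd274, Tgm2, Alox5ap, Icam1, Ch25h, Zbtb8a and Il1a overlap a gene on the other strand over 11.3% to 20.7% of their bases, so that the values of these genes depend on how strand was counted.

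The promoter table held 32851 promoters of 27025 genes, each from 250 bases before to 50 after a start, and 6346 of the genes tested were matched. The ISRE core lay in 8.56% of all promoters and in 7.91% of those of tested genes, against 15.7% where LPS widened, 6.43% where VWF widened and 48.9% (22 of 45) in the interferon list. The κB consensus lay in 8.46% of all promoters and 10.6% of those tested, against 16.3% where LPS widened, 8.51% where VWF widened and 48.1% (13 of 27) in the NF-κB list. The E2F motif lay in 2.19% of all promoters and 3.97% of those tested, against 7.56% where VWF widened, 3.28% where LPS widened, 21.9% (7 of 32) in the replication list and none of 21 in the mitosis list. The hypoxia core lay in 19.6% of all promoters and 26.8% of those tested, against 23.7% where LPS widened, 28.5% where VWF widened and 57.1% (16 of 28) in the HIF-1 list. AP-1 (TGANTCA) lay in 7.81% of all promoters and 5.32% of those tested, against 9.40% where LPS widened and 4.73% where VWF widened. A match describes the letters of these windows and is not evidence of binding.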

How the data were processed

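RNA of 28 BMDM cultures was sequenced, and the authors mapped paired-end reads to GRCm38 (mm10) with STAR and deposited raw counts per Ensembl gene, without normalization or a filter. How strand and multi-mapping reads were treated, and which annotation was used, is not given in the sources used here. Groups, times, doses and replicate numbers came from the labels. Exon lengths came from GENCODE M21, and genes reaching 10 TPM in at least 1 of the 18 VWF and LPS cultures were kept. One fit of the 4 groups with edgeR 4.0.16 (R 4.3.3; TMM factors, robust quasi-likelihood) gave the interaction, both agonist differences and both time courses, with Benjamini-Hochberg adjustment over all genes tested. Calls needed an adjusted p under 0.05 and an absolute log2 of at least 1. On simulated data of 8216 genes the interaction test recovered 40% of changes of 2-fold, 96% of 4-fold and 100% of 8-fold. The contrast, the lists and the named genes were chosen with earlier results of these data known. Named genes were the 4 protein-coding genes of largest interaction in each class and direction (at least 10 mean counts in each group, no overlap at the class's time), 14 RNAs of the study, and up to 4 called genes per list and direction. List levels used log2(CPM + 0.5). Replicate numbers were checked for pairing: deviations of same-numbered cultures correlated over 0.1 in every pair for the 16 h groups and for late VWF with early LPS, and in no other pair of groups, so the contrast was not treated as paired. No culture duplicated another. The alternatives were DESeq2 1.42.0, other scalings, filters and thresholds, all cultures in one fit, a replicate block, and leaving out each culture.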

Additional observations from a re-analysis of the deposited data

Results flagged for a closer look

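In 2052 genes the effect of time differed between the agonists by the test of the interaction itself. Of the 36 genes named for their class or for the study, 34 were among them. Genes named for a class were called by the rule that chose them, so this count is no result for them. Only the RNAs of the study could fail, and Hk2 and Hk3 were not called. The log2 interactions in favour of VWF were 5.64 for Cdc6, 5.01 for Pclaf, 4.86 for Ccna2, 4.80 for Fignl1, 4.80 for Pbk, 4.42 for Tspan33, 3.90 for Rnd3, 3.84 for Zbtb8a, 3.13 for Irf8, 3.12 for Batf3, 3.10 for Rgs2, 3.06 for Plekhf1, 2.58 for Idh2 and 1.56 for Idh1. Those in favour of LPS were −11.45 for Nos2, −8.81 for Flrt3, −7.87 for Hcar2, −6.30 for Hspa1a, −6.14 for Il1b, −5.71 for Adora2b, −5.29 for Il12b, −5.09 for Il6, −5.07 for Spic, −4.72 for Trem1, −3.54 for Ccl4, −3.52 for Arhgef10l, −3.36 for Ccl3, −3.31 for Trib1, −3.24 for Atg9a, −2.53 for Tnf, −2.43 for Ccl2, −2.40 for Slc2a1, −2.16 for Egln3 and −1.43 for Hif1a.

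A culture lay far from the others of its group in 11 of 160 groups examined, where chance gives about 1 in 20. VWF at 16 h replicate 5 held 35.3 CPM of Ccna2, against 23.9 to 25.3 in the others, and 22.2 CPM of Pbk, against 11.6 to 14.2. LPS at 3.5 h replicate 1 held 14.7 CPM of Pbk, against 7.97 to 9.02, and 1.62 CPM of Trem1, against 0.786 to 0.869. Further cultures of this kind were VWF at 3.5 h replicate 4 with 42.7 CPM of Trib1 (others 55.8 to 60.5), VWF at 3.5 h replicate 1 with 1.65 CPM of Cdc6 (others 0.716 to 0.977), VWF at 16 h replicate 1 with 4.91 CPM of Spic (others 6.06 to 6.37) and LPS at 3.5 h replicate 4 with 92.7 CPM of Slc2a1 (others 62.0 to 66.8). LPS at 16 h replicate 4 held 2.14 CPM of Fignl1 (others 1.27 to 1.34), and 16011 genes were detected in it (others 19029 to 19485). The total count of VWF at 3.5 h replicate 5 was 76943833, against 46021894 to 53890327 in the others of its group.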

How the results depend on the processing

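No called gene had the opposite sign in any alternative. DESeq2 called 2076 genes (2038 shared with the 2052), median-of-ratios factors 2040, a filter of 10 CPM 2250 and a fit of all 28 cultures 2125. With a replicate block the count was 2075 (2010 shared), and 1957 with the block within each time, and at 16 h, where same-numbered VWF and LPS cultures deviated together, the block gave 2116 called agonist differences against 2100. Leaving out each culture gave 1890 to 2408 calls, the highest without LPS at 16 h replicate 4 (1968 shared), where Cited2 was no longer called. Counts of some lists moved without that culture. VWF then gained in 4 NRF2 genes, 3 scavenger markers and no HIF-1 gene, and LPS in 12 genes of the TLR4 pathway list and 7 scavenger markers. The median interaction of the antigen presentation list was then −0.41. Library size scaling (2069 calls, 1772 shared) gave 939 genes widened with VWF higher, 444 widened with LPS higher and 231 closed with VWF higher, and Spi1 was not called. With edgeR's filterByExpr, which tests 15143 genes, 3576 were called (1766 higher, 1810 lower), with 1189 and 1107 widened, 244 and 142 closed and 35 and 80 turned for VWF and LPS. With no filter (28225 genes) these counts were 3528, 1668, 1860, 1155, 1112, 251, 127, 31 and 75. A test against a fold of 2 gave 974, 383, 591, 307, 409, 57, 33, 4 and 13, and no fold threshold gave 4329, 1926, 2403, 1336, 1440, 441, 273, 211 and 457, both by their construction. Among the genes named above, Atg9a (adjusted p = 0.0731) and Tlr9 (0.0589) lost their call with no filter. Against a fold of 2, calls were lost in Egln3 (0.0667), Slc16a1 (0.0865), Cx3cr1 (0.0868), Mmp9 (0.0973), Tlr9 (0.0996), Cebpa (0.107), Atg9a (0.108), Pf4 (0.365), Pdia4 (0.468), Spi1 (0.525), Cited2 (0.619) and Scd2 (0.625). Without LPS at 3.5 h replicate 1 the interaction of Scd2 was 0.999, under the threshold. Genes of few counts limit the fold: in VWF cultures at 16 h Nos2 rests on 6 to 31 counts, Hcar2 on 4 to 21, Il6 on 9 to 28, Cxcl11 on 4 to 48 and Ccl24 on 0 to 4.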
